A study of Mus musculus with 6 samples.

Results

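The genes of glycolysis and of the response to low oxygen were followed in cells of the fetal mouse lung kept in culture. The set was a list of 36 genes by symbol, chosen for what they encode but with earlier results of these data known. It held glucose and lactate transporters, the enzymes of glycolysis, the oxygen-regulated transcription factors HIF-1α and HIF-2α with 2 of their hydroxylases, and genes that HIF factors switch on. All 36 were found among the 31053 gene identifiers of the count tables and all 36 passed the filter on low counts, which kept 14912 genes. The cells came from lungs of C57BL6 mouse fetuses at E17 and were digested with liberase, frozen in DMSO, thawed onto diluted Matrigel and grown in a medium for blood stem cells (HSPC media) with mTPO, IL6, SCF, FGF, VEGF and Flt3. Every group shared this history and the wash of the wells on day 3. On days 4, 5 and 6 of culture 1 library was made from floating (suspension) cells and 1 from adherent cells, which had been detached with accutase and sorted as live and positive for VE-cadherin. There were thus 3 libraries in each fraction, each of another day, and the fractions differed in attachment, in enzyme treatment and in the sort. The sources used here give neither the oxygen level of the cultures nor the number of pooled fetuses. Nothing in the labels makes the 3 days separate cultures, so a p-value measures only the spread between these libraries.

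The values are reads from the 3′ ends of transcripts, summed over all droplets of a library, and are given as CPM (counts of a gene relative to the library total, after TMM scaling). Library totals lay between 36451255 and 57784974 counts, and 3 counts in a library stood for between 0.0594 and 0.0756 CPM. No member was near that floor, with the lowest count at 25 (Eno2). The share of reads that aligned to several places was 18.7% to 22.6% in adherent and 13.9% to 15.5% in suspension libraries. The cell make-up of the fractions differed. The summed level of 10 endothelial markers was 13.3 to 20.4 CPM in suspension and 660.3 to 1722 in adherent libraries (10 of 10 lower in suspension, 7 of them under 1 CPM in every suspension library, none at 0). Those of 10 fibroblast markers were 18.1 to 69.0 and 1544 to 2373 CPM (10 of 10 lower, none at 0), so the sorted libraries also held RNA of fibroblast marker genes. The 10 neutrophil markers summed to 26113 to 78737 CPM in suspension and 269 to 1127 in adherent libraries (10 of 10 higher), and 10 monocyte and macrophage markers to 17629 to 19348 and 2737 to 7049 CPM (9 of 10 higher). The 10 epithelial markers summed to 13.9 to 247 and 339 to 1423 CPM (5 of 10 lower). In such bulk sums fewer cells of a type and less RNA per cell cannot be told apart, and the part of cell make-up in the results that follow was not tested.

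Glycolysis splits glucose into pyruvate in the cytosol and yields ATP without oxygen, and lactate dehydrogenase turns pyruvate into lactate so that the pathway can go on. When oxygen is short the prolyl hydroxylases that mark HIF α subunits for destruction lose activity, and the stabilised α subunits pair with ARNT and bind a short core sequence beside their target genes, many of which encode glycolytic enzymes. Neutrophils and activated macrophages are known to lean on glycolysis, and HIF-2α, the product of Epas1, is known for its role in the endothelium of the developing lung.

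Glycolysis genes were mostly higher in suspension, whereas the HIF system and its other targets went both ways. Among the 25 transport and enzyme genes 14 were higher in suspension and 3 lower, with a median log2 ratio of 0.58, and among the 11 genes of the HIF system and its other targets 3 were higher and 3 lower, with a median of -0.21. The 2 sets were not tested against each other. Over all 36 members 17 were higher and 6 lower by the quasi-likelihood test of edgeR (adjusted p under 0.05, Benjamini-Hochberg over all genes), which is 47.2% and 16.7% of them. Among all genes tested 27.1% were higher and 29.7% lower, so the share called in either direction (63.9% against 56.8%) was near the background and the members leaned to the higher side, with a median of 0.45 against -0.00 for all genes. In 24 members (66.7%) no library of one fraction lay within the range of the other, close to the 67.8% of all genes. All 23 called members were among these 24, so the same direction on each of the 3 days followed from that and is no further result. Of the 13 others 7 had the same direction on each day, and the share over all genes was not counted. With library totals in place of TMM factors the median of all genes moved to -0.24, the higher share of all calls from 47.8% to 34.3%, and the members from 17 and 6 to 13 and 10, with no called member changing direction. The calls of Pfkl (adjusted p = 0.0681), Ldha (0.0856), Pgk1 (0.0759) and Pdk1 (0.141) were lost with library totals, and Slc2a1 (0.0251), Tpi1 (0.0472), Egln1 (0.0156) and Ankrd37 (0.0385) were called as lower.

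**Figure D1:**
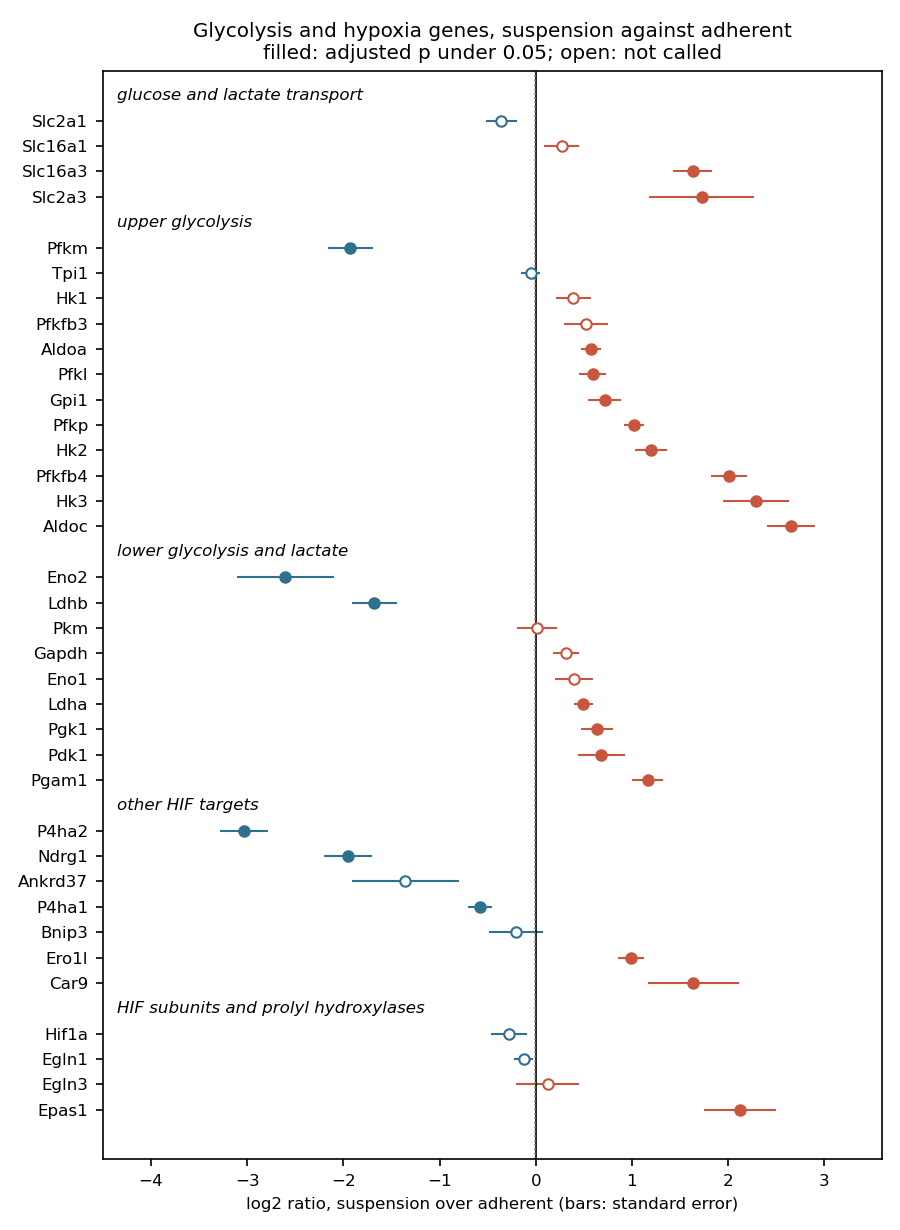
Log2 ratio of suspension over adherent libraries for the 36 genes (x axis), in blocks by role, with standard errors as bars. Filled points passed an adjusted p of 0.05, and the dotted line is the median of all genes tested. Enzyme genes sit mostly to the right, up to Aldoc at 2.66, and P4ha2 is farthest to the left at -3.03.

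Because HIF binds short core letters, RefSeq start site windows of the members were read (GRCm38.p6, 250 bases before to 50 after a start). Windows were held for 33 members, and Slc2a3, Epas1 and Ndrg1 had none. The core letters searched were ACGTG and GCGTG on both strands, and a CACGTG palindrome counts as 2 overlapping matches. At least 1 match was found for 30 of the 33 members (90.9%) and for 46.7% of the 27025 genes with a window. Many members were listed as known HIF targets, so the higher share among them is not independent of their choice. Counted by window, 82.6% of the members' 46 windows and 43.8% of all 32851 held a match. Matches were found for 14 of the 15 higher, 4 of the 5 lower and 12 of the 13 not called members with a window, so the letters were there in genes that went either way. Base composition, which differs between promoters, was not matched in this description. The windows of the 3 highest and the 3 lowest called members with 1 RefSeq start show this, with the core letters in capitals (CACGT and CACGC are the same letters read on the opposite strand), 5′ to 3′ on the strand of the gene.
Hk3 (higher, chr13:55021336-55021635, minus strand): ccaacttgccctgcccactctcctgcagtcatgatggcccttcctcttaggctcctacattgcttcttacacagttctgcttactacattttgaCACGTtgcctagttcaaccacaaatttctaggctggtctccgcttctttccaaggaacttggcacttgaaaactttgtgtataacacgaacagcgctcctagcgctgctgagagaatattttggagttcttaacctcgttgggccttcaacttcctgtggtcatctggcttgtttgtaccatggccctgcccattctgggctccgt
Pfkfb4 (higher, chr9:108991652-108991951, plus strand): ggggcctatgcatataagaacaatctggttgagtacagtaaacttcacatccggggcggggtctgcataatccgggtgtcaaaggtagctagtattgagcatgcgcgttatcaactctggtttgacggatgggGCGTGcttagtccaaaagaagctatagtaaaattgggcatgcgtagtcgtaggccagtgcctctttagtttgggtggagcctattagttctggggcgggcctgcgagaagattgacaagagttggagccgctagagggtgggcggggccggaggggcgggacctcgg
Car9 (higher, chr4:43506776-43507075, plus strand): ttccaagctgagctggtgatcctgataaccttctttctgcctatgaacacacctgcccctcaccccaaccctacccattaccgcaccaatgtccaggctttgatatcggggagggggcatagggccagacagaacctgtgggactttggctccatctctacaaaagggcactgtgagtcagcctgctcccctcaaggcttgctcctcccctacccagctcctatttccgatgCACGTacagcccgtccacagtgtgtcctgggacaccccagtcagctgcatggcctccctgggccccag
P4ha2 (lower, chr11:54100674-54100973, plus strand): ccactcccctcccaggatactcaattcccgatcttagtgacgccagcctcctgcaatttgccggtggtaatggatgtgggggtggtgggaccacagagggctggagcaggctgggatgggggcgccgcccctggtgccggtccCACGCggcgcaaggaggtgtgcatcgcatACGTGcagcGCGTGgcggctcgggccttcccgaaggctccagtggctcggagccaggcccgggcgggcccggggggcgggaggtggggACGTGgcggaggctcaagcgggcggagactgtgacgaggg
Eno2 (lower, chr6:124769624-124769923, minus strand): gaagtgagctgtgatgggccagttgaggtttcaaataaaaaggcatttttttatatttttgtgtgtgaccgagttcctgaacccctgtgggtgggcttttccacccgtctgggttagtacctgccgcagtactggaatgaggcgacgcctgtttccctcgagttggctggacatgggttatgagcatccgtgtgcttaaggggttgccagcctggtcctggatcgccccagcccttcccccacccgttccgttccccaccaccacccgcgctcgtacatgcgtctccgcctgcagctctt
Ldhb (lower, chr6:142507908-142508207, minus strand): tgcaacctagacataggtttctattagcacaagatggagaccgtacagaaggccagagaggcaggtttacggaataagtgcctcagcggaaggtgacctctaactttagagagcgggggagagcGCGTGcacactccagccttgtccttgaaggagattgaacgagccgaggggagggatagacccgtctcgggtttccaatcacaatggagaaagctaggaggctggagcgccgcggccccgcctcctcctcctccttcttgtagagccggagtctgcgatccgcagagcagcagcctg
Among these, P4ha2 held 4 matches, Hk3, Pfkfb4, Car9 and Ldhb 1 each and Eno2 none. That of Car9, a carbonic anhydrase known as a strong HIF target, began 18 bases before the start.

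Glucose enters cells through Slc2a1 (GLUT1) and Slc2a3 (GLUT3). Slc2a3 (ENSMUSG00000003153, mm10 chromosome 6, 122727809 to 122801640) had 10.1, 18.8 and 42.6 CPM in suspension and 4.73, 9.32 and 7.59 in adherent cells, here and below in the order of days 4, 5 and 6. All suspension libraries lay above the adherent ones, although that of day 4 was only just above the adherent library of day 5. The log2 ratio was 1.73 ± 0.55 (SE, adjusted p = 0.0339 by edgeR), and the adjusted p lay between 0.0608 and 0.0883 when any library but that of suspension day 4 was left out. Without suspension day 6 the ratio was 0.99. Slc2a1, the transporter of most cell types, was at 25.2, 24.0 and 25.6 CPM in suspension and 34.5, 36.6 and 24.8 in adherent cells. These libraries overlapped, and the ratio of -0.36 ± 0.16 did not pass (adjusted p = 0.0980). Without the adherent library of day 6, the lowest of its fraction, the adjusted p was 0.00734, and Slc2a1 also passed as lower with library totals (0.0251) and with a filter of 10 CPM in 3 libraries (0.0345).

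Hexokinases trap glucose by adding a phosphate. Hk3 (ENSMUSG00000025877, mm10 chromosome 13, 55005985 to 55021385), the form known from white blood cells, was at 45.7, 48.3 and 67.3 CPM in suspension and 9.48, 7.05 and 16.5 in adherent cells. Every suspension library was well above every adherent one (log2 ratio 2.28 ± 0.34, adjusted p = 0.00224). Hk2, the inducible form and a HIF target, was at 76.0, 85.3 and 67.0 CPM in suspension and 26.6, 34.8 and 38.2 in adherent cells, again without overlap (1.20 ± 0.17, adjusted p = 0.00179). Hk1, the widespread form, was at 29.8, 35.3 and 41.2 CPM in suspension and 27.1, 32.0 and 22.0 in adherent cells, with overlapping libraries and a ratio of 0.39 ± 0.18 that did not pass (adjusted p = 0.111). The isomerase gene Gpi1, whose product makes fructose 6-phosphate, was at 221, 222 and 270.0 CPM in suspension and 123, 177 and 134 in adherent cells, higher in suspension by 0.72 ± 0.17.

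Phosphofructokinase commits sugar to glycolysis, and its 3 genes went in different directions. Pfkp (ENSMUSG00000021196, mm10 chromosome 13, 6579768 to 6648777), the platelet form, was at 42.4, 41.7 and 40.3 CPM in suspension and 19.7, 22.8 and 18.9 in adherent cells, a narrow spread on both sides (1.02 ± 0.11, adjusted p = 0.000748). Pfkl, the liver form, was at 51.1, 61.8 and 54.2 CPM in suspension and 31.0, 41.0 and 38.7 in adherent cells, higher by a smaller ratio (0.59 ± 0.14) that did not pass with library totals (adjusted p = 0.0681). The muscle form Pfkm (ENSMUSG00000033065, mm10 chromosome 15, 98092589 to 98132451) was lower in suspension, at 3.10, 2.79 and 2.10 CPM against 8.72, 12.4 and 9.18 (-1.93 ± 0.23, adjusted p = 0.00117), with no overlap. The bifunctional enzymes that make the activator of phosphofructokinase were unlike in size. Pfkfb4 (ENSMUSG00000025648, mm10 chromosome 9, 108991778 to 109032228) stood at 18.5, 22.8 and 28.8 CPM in suspension and 6.09, 5.47 and 5.82 in adherent cells, where the 3 libraries were nearly equal (2.01 ± 0.19, adjusted p = 0.000603). Pfkfb3 was at 12.6, 13.8 and 21.1 CPM in suspension and 9.58, 11.0 and 12.6 in adherent cells, where the suspension library of day 4 only matched the adherent one of day 6 (0.52 ± 0.23, adjusted p = 0.0951). With the collection day as a block the adjusted p of Pfkfb3 was 0.0355.

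Aldolase cleaves the doubly phosphorylated sugar. Aldoc (ENSMUSG00000017390, mm10 chromosome 11, 78322968 to 78327781), the brain-type form, had the highest ratio of the 36 genes. It was at 38.7, 38.5 and 23.8 CPM in suspension and 4.20, 5.87 and 5.94 in adherent cells, a fitted ratio of 6.31 times (2.66 ± 0.25, adjusted p = 0.000618). The lowest suspension library, of day 6, was still about 4 times the highest adherent one. Aldoa, the main form of most cells, was at 759, 732 and 746 CPM in suspension and 500.3, 540.4 and 459 in adherent cells, higher by 0.58 ± 0.10. Tpi1, which interconverts the products of that cleavage, was at 162, 165 and 178 CPM in suspension and 175, 186 and 163 in adherent cells, with overlapping libraries (-0.05 ± 0.10, adjusted p = 0.659).

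Of the 9 genes of lower glycolysis and lactate production 4 were higher and 2 lower in suspension, beside 27.1% and 29.7% of all genes. Ldha (ENSMUSG00000063229, mm10 chromosome 7, 46841475 to 46855627), the lactate dehydrogenase subunit that favours lactate, was at 579, 531 and 558 CPM in suspension and 416, 393 and 374 in adherent cells (0.50 ± 0.10, adjusted p = 0.00548, and 0.0856 with library totals). Ldhb (ENSMUSG00000030246, mm10 chromosome 6, 142490249 to 142507957), the subunit of oxidative tissues, was the other way round, at 15.2, 12.4 and 8.36 CPM against 32.9, 39.9 and 42.2 (-1.68 ± 0.23, adjusted p = 0.00175). Neither gene's libraries overlapped between the fractions. Slc16a3 (MCT4), which exports lactate, was at 23.5, 28.0 and 36.6 CPM in suspension and 8.17, 10.9 and 9.29 in adherent cells (1.63 ± 0.20, adjusted p = 0.00123). Its relative Slc16a1 (MCT1), which carries lactate either way, was at 25.1, 27.2 and 20.3 CPM in suspension and 22.2, 22.5 and 15.6 in adherent cells and did not pass (0.27 ± 0.19, adjusted p = 0.256). Eno2 (ENSMUSG00000004267, mm10 chromosome 6, 124760053 to 124769673), the neuronal enolase, was low everywhere and lower in suspension, at 0.630, 0.715 and 0.495 CPM against 1.52, 4.41 and 5.26 (-2.60 ± 0.51, adjusted p = 0.00569). The suspension libraries held 25 to 30 counts of it and the adherent ones 66 to 226.

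Pgam1 and Pgk1, for phosphoglycerate mutase and kinase, were higher in suspension by 1.17 ± 0.16 and 0.63 ± 0.17. Pgam1 was at 7.05, 8.13 and 8.02 CPM against 3.23, 3.70 and 3.40, and Pgk1 at 20.1, 17.5 and 25.2 against 15.0, 13.2 and 12.2. The adjusted p of Pgk1, 0.0176 by edgeR, lay between 0.0526 and 0.0692 when suspension day 4, suspension day 6 or adherent day 5 was left out. It was 0.0759 with library totals and 0.0514 with the filter of 10 CPM. Pdk1, a kinase that inhibits pyruvate dehydrogenase, was at 14.8, 17.1 and 15.7 CPM in suspension and 6.46, 12.0 and 11.2 in adherent cells and was just inside the threshold (0.68 ± 0.24, adjusted p = 0.0496). It passed without the adherent library of day 4 but not without any other library (0.0509 to 0.138), nor with DESeq2's size factors (0.0505), library totals (0.141), no filter (0.0502) or the filter of 10 CPM (0.0953). Gapdh, Eno1 and Pkm did not pass. Gapdh was at 948, 904 and 834 CPM in suspension and 735, 819 and 608 in adherent cells (0.31 ± 0.14, adjusted p = 0.0957), without overlap. Eno1 was at 205, 195 and 187 CPM in suspension and 189, 149 and 109 in adherent cells (0.40 ± 0.20, adjusted p = 0.133, and 0.0199 without adherent day 4), and Pkm, the pyruvate kinase, at 651, 619 and 681 CPM in suspension and 698, 781 and 452 in adherent cells (0.02 ± 0.21, adjusted p = 0.956), where the sign changed with the scaling. Of the 50-base words in the last 500 bases of the longest coding transcript, 90.5% of those of Gapdh and 75.2% of those of Eno1 also occurred in transcripts of other genes, mostly pseudogenes. For Bnip3 the share was 27.7%, with 1 gene not marked as a pseudogene. It was 24.4% for Ldhb and at most 7.32% for any other member. Only these last 500 bases were searched, so sharing elsewhere in a transcript was not seen. Reads aligned to several places stayed out of the gene counts, 18.7% to 22.6% in adherent and 13.9% to 15.5% in suspension libraries. How many of them came from these genes was not seen, so the levels of Gapdh, Eno1, Bnip3 and Ldhb are uncertain. So are those of Pfkm and Hif1a, which the annotation overlaps on the same strand with the counted genes Gm26513 and Gm49321.

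**Figure D2:**
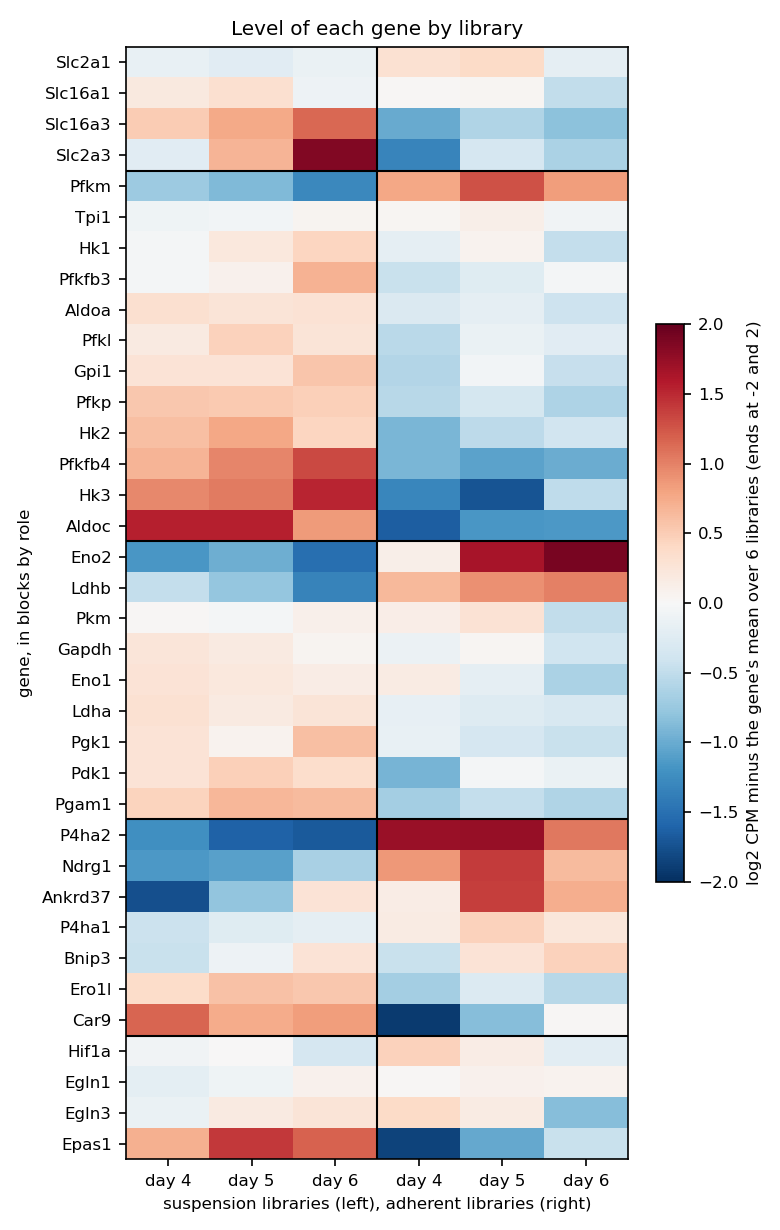
Level of each gene (rows, in blocks by role) in each library (columns), as log2 CPM minus the mean of that gene over the 6 libraries. Red marks libraries above and blue those below the mean: Hk3, Pfkfb4 and Aldoc are red in the suspension libraries on the left, and Pfkm, Eno2, Ldhb, P4ha2 and Ndrg1 on the right.

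Shares of paralogues were compared within the counts of a step. The share of a gene among the counts of its set compares libraries and not the levels of different genes. Of 15 shares in 11 sets, 12 did not overlap between the fractions, where 67.8% of all single genes tested did not. No such count was made for shares of other gene sets, and shares of 1 set depend on each other. In each of the 12 an exact two-sided permutation test gave p = 0.1, the smallest that 3 libraries against 3 allow. Adjusted over the 15 it was 0.125, so none passed 0.05. In every library Aldoa (mean 95.7% in suspension and 98.9% in adherent cells), Eno1 (99.7% and 97.2%) and Ldha held most counts of their set. So did Egln1 (90.1% and 91.6%), P4ha1 (94.5% and 76.3%, without overlap) and Pfkl (55.7% and 54.7%). Hk1 took 19.6% to 23.5% of hexokinase counts in suspension and 28.6% to 43.4% in adherent cells, while Hk3 took 28.6% to 38.3% and 9.54% to 21.5%. The share of Hk2 was the same on average (46.3% ± 7.03 and 46.3% ± 3.91, SD, n = 3). Pfkm held 2.67% ± 0.518 of phosphofructokinase counts in suspension (SD, n = 3), against 14.9% ± 1.30 in adherent cells. Pfkp held 41.6% ± 2.35 and 30.4% ± 2.50, and the share of Pfkl overlapped. Ldha made up 97.9% ± 0.563 of the lactate dehydrogenase counts in suspension (SD, n = 3), against 91.1% ± 1.43 in adherent cells.

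The transporter pairs spread over the days. Slc2a1 took 71.3%, 56.0% and 37.5% of the pair's counts in suspension on days 4, 5 and 6, against 87.9%, 79.7% and 76.5% in adherent cells. Slc16a1 took 51.6%, 49.3% and 35.7% of its pair in suspension and 73.1%, 67.3% and 62.6% in adherent cells. In both pairs the suspension library of day 6 stood lowest. Pfkfb3 held 40.2% ± 2.31 of the Pfkfb3 and Pfkfb4 counts in suspension and 65.4% ± 3.83 in adherent cells. The HIF α subunits gave the widest gap, with Hif1a at 44.4% ± 6.65 of their counts in suspension and 79.9% ± 10.8 in adherent cells, a difference of -35.5 points.

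**Figure D3:**
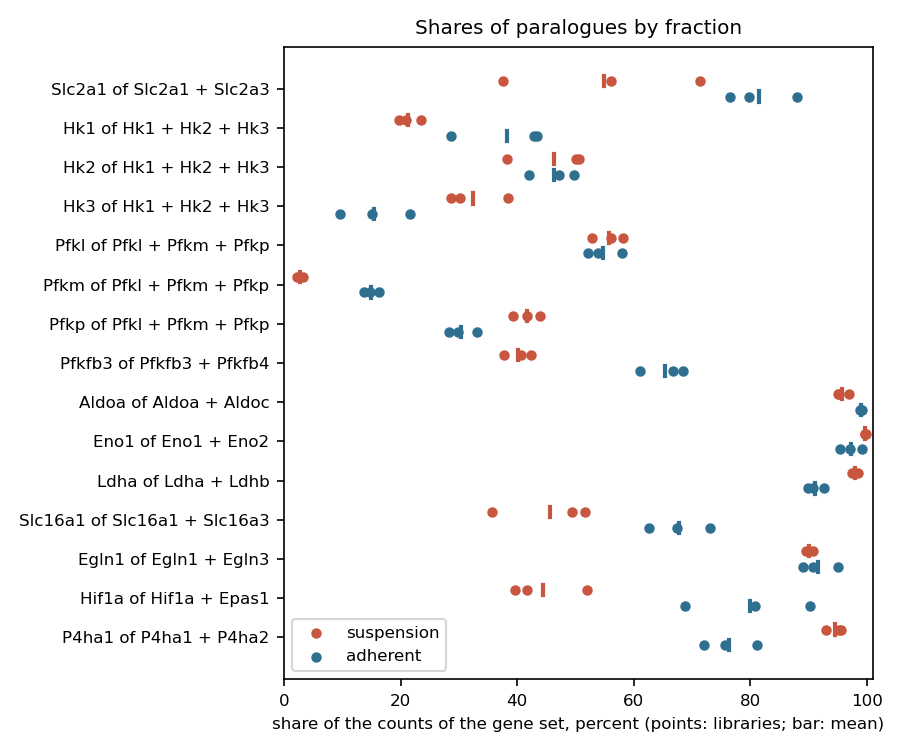
Share of 1 gene in the counts of its set (x axis, percent) for 15 shares, with a point for each library and a bar for the mean of 3. Hif1a of Hif1a + Epas1 shows the widest gap, and the points of Hk2, Pfkl and Egln1 overlap between the fractions.

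Of the 4 genes of the HIF subunits and their prolyl hydroxylases 1 passed the test between the fractions, beside 56.8% of all genes. Epas1 (ENSMUSG00000024140, mm10 chromosome 17, 86753700 to 86833410), which encodes HIF-2α, was at 102, 164 and 139.7 CPM in suspension and 17.2, 30.6 and 45.6 in adherent cells. The lowest suspension library was more than 2 times the highest adherent one, and the fitted ratio was 4.35 times (2.12 ± 0.38, adjusted p = 0.00399). In suspension 7 of 10 endothelial markers were under 1 CPM. There, 10 of 10 neutrophil and 9 of 10 monocyte and macrophage markers were higher. The part of cell make-up in the level of Epas1 was not tested. Hif1a (HIF-1α) was at 110.2, 117 and 91.8 CPM in suspension and 159, 128 and 100.2 in adherent cells, and these libraries overlapped (-0.28 ± 0.19, adjusted p = 0.244). Of the prolyl hydroxylases, Egln1 (PHD2), the main oxygen sensor, was at 51.5, 55.4 and 62.2 CPM in suspension and 60.0, 62.7 and 61.7 in adherent cells (-0.13 ± 0.10, adjusted p = 0.325). Egln3 (PHD3), itself a HIF target, was at 5.21, 6.50 and 6.87 CPM in suspension and 7.45, 6.40 and 3.19 in adherent cells (0.13 ± 0.33, adjusted p = 0.765), and its ratio was -0.12 with library totals. Egln1 was lower in suspension with library totals in place of TMM (adjusted p = 0.0156) and with the filter of 10 CPM (0.0363).

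Of the 7 HIF targets outside glycolysis 2 were higher and 3 lower in suspension, beside 27.1% and 29.7% of all genes. P4ha2 (ENSMUSG00000018906, mm10 chromosome 11, 54100095 to 54131665), a subunit of collagen prolyl 4-hydroxylase, was at 2.83, 2.17 and 2.08 CPM in suspension and 21.9, 22.3 and 13.8 in adherent cells. This was the lowest ratio of the 36 genes, 8.18 times in favour of adherent cells (-3.03 ± 0.25, adjusted p = 0.000492). Its sister subunit P4ha1 was at 37.1, 42.6 and 44.2 CPM in suspension and 56.4, 69.4 and 59.1 in adherent cells, lower in suspension by a small ratio (-0.58 ± 0.12, adjusted p = 0.00800). Fibroblast markers, whose sum was 18.1 to 69.0 CPM in suspension and 1544 to 2373 in adherent libraries, were lower with them, and their part in this was not tested. Ndrg1 (ENSMUSG00000005125, mm10 chromosome 15, 66929318 to 66969640), a stress-induced gene, was at 5.57, 5.79 and 7.84 CPM against 22.4, 32.6 and 19.2 (-1.95 ± 0.25, adjusted p = 0.00132), without overlap.

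On the higher side, Ero1l, an oxidase that forms disulphide bonds in the endoplasmic reticulum, was at 51.8, 60.4 and 58.3 CPM in suspension and 25.0, 33.3 and 27.4 in adherent cells (0.99 ± 0.14, adjusted p = 0.00171). Car9 (ENSMUSG00000028463, mm10 chromosome 4, 43506966 to 43513729), a cell surface carbonic anhydrase that removes acid, was at 7.65, 5.72 and 6.06 CPM in suspension and 0.900, 1.89 and 3.45 in adherent cells. No library of one fraction reached the other (1.64 ± 0.47, adjusted p = 0.0244), but the adjusted p was 0.0543 to 0.0817 when suspension day 4, suspension day 5 or adherent day 5 was left out. Bnip3, a mitochondrial receptor for mitophagy, was at 12.3, 15.6 and 20.3 CPM in suspension and 12.3, 20.4 and 23.0 in adherent cells (-0.21 ± 0.28, adjusted p = 0.558). Ankrd37 was at 1.57, 3.10 and 6.46 CPM in suspension and 5.91, 13.9 and 8.85 in adherent cells, where the suspension library of day 6 was above the adherent one of day 4 (-1.36 ± 0.56, adjusted p = 0.0775). Ankrd37 passed as lower with the day as a block (adjusted p = 0.0315), by DESeq2 (0.0251), with library totals (0.0385) and without the suspension library of day 6 (0.0185).

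Against a 2-fold difference (edgeR's glmTreat) 5 members were higher and 5 lower, beside 8.77% and 16.4% of all genes. The higher ones were Hk3, Pfkfb4, Aldoc, Slc16a3 and Epas1, and the lower ones Pfkm, Eno2, Ldhb, Ndrg1 and P4ha2. The other 13 called members thus had ratios not shown to exceed 2 times.

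Over the days, 3 members passed a test of change by edgeR, each with the slope of the adherent libraries. The slope common to both fractions called 0 members in either direction, beside 0.0134% of all genes higher and 0% lower (lowest adjusted p among members 0.128, and 8 at an unadjusted p under 0.05 where 20.4% of all genes were). DESeq2 called 4, Slc2a3, Pfkfb3, Bnip3 and Epas1, all rising. In suspension 0 members passed by edgeR, beside 0.0939% and 0.402% of all genes (8 at an unadjusted p under 0.05, or 22.2%, where 16.5% of all genes were), and DESeq2 called Slc2a3 and Ankrd37 as rising and Ldhb as falling. In adherent cells 2 rose and 1 fell, beside 7.75% and 3.52% of all genes, so the members' share was near the background. DESeq2 called these 3 and also Bnip3, Egln3 and Hif1a. Epas1 rose by 0.70 ± 0.14 log2 a day (adjusted p = 0.0373), from 17.2 to 45.6 CPM, and did not pass with library totals (0.0531). Car9 rose by 0.96 ± 0.16 a day (adjusted p = 0.0266), from 0.900 to 3.45 CPM. Eno1 fell by 0.40 log2 a day (SE 0.06, adjusted p = 0.0201), from 189 to 109 CPM. Beside Epas1 and Car9, the macrophage and neutrophil markers of the adherent libraries summed to 2737, 3532 and 7049 CPM and to 269, 870 and 1127 CPM on days 4, 5 and 6. Beside Eno1, the epithelial keratins Krt8 and Krt18 fell by 1.24 and 1.51 log2 a day (adjusted p = 0.00980 and 0.00895), while the sum of 10 epithelial markers was 1423, 339 and 908 CPM. The part of these markers was not tested. Each call was lost without the adherent library of day 4 or day 6 (adjusted p 0.137 to 0.341), and those of Eno1 and Car9 also when any 1 suspension library was left out (0.0538 to 0.0700).

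The difference of the slopes between fractions passed for 0 members by edgeR, beside 0.0536% of all genes higher and 0.463% lower (9 members at an unadjusted p under 0.05, where 19.6% of all genes were). A difference between the fractions in their course was therefore not shown for Epas1 (adjusted p = 0.270), Car9 (0.0868) or Eno1 (0.125). By DESeq2, Eno1, Ldhb and Car9 passed. Ldhb was at -0.61 ± 0.11 log2 a day, suspension minus adherent (adjusted p = 0.0796 by edgeR), falling from 15.2 to 8.36 CPM in suspension where adherent values went from 32.9 to 42.2. Slc2a3 in suspension was at 1.04 ± 0.17 log2 a day (adjusted p = 0.0880), and the summed neutrophil markers of those libraries were 26113, 33606 and 78737 CPM.

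**Figure D4:**
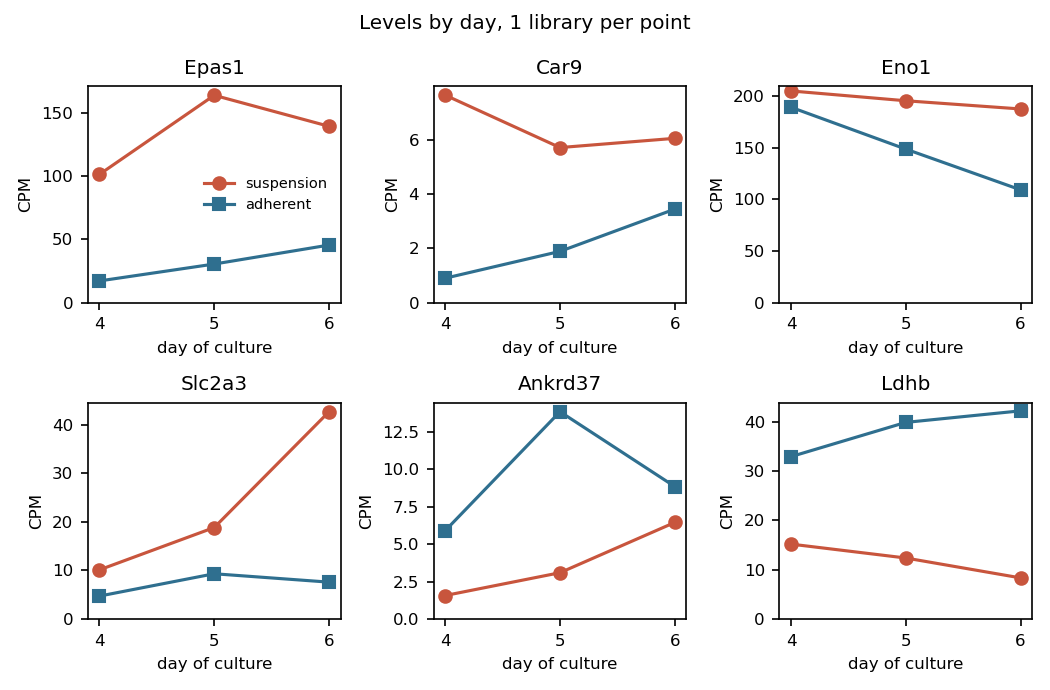
CPM (y axis, from 0) by day of culture (x axis) in suspension (circles) and adherent (squares) cells, with 1 library per point. Epas1 and Car9 go up and Eno1 goes down in adherent cells, and Slc2a3 is highest in the suspension library of day 6, at 42.6 CPM.

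Genes of linked pathways, listed apart from the members and also with earlier results of these data known, went in different directions. Among all genes tested 27.1% were higher and 29.7% lower, with a median of -0.00. Of 7 genes of the pentose phosphate pathway, which draws on glucose 6-phosphate to make NADPH, 6 were higher in suspension and 0 lower, with a median of 1.23. Taldo1 (transaldolase) was at 844, 748 and 763 CPM in suspension and 269.6, 259.6 and 252 in adherent cells (1.59 ± 0.10, adjusted p = 0.000345). Tkt (transketolase) and Pgd, which makes NADPH, were at 1.12 ± 0.11 and 1.23 ± 0.14. Pgls, the lactonase, was the 1 that did not pass (-0.11 ± 0.09). Of 28 genes of pyruvate entry and the citric acid cycle 11 were higher and 3 lower, most by small ratios, with a median of 0.26. The share called in either direction was 50%, against 56.8% of all genes. Mpc2, a subunit of the mitochondrial pyruvate carrier, was at 0.68 ± 0.18, and the succinate dehydrogenase genes Sdha and Sdhb at 0.68 ± 0.11 and 0.29 ± 0.08. The 3 lower were Pdk4 (-4.90 ± 0.97, 34 counts in suspension in all), Suclg2 (-0.70 ± 0.14) and Sucla2 (-0.29 ± 0.09). Other isoenzymes and transporters of glycolysis gave 7 higher and 2 lower of 18 tested from 23 listed, again 50% called. Adpgk, which phosphorylates glucose with ADP, was at 1.77 ± 0.32, the monocarboxylate carrier Slc16a7 at 1.62 ± 0.33 and Tigar, a sugar bisphosphatase that slows glycolysis, at 1.50 ± 0.23. Bsg (basigin), the chaperone of the lactate carriers, was lower at -0.81 ± 0.12, as was Slc2a10 at -4.84 ± 0.90 with 8 counts in suspension in all.

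Further HIF targets were more often lower than higher in suspension, 13 against 6 of 29, with a median of -0.25, where all genes had 29.7% lower and 27.1% higher. Adm (adrenomedullin), a vasodilator peptide, was at 6.13, 3.29 and 1.66 CPM in suspension and 159, 113 and 139 in adherent cells (-5.22 ± 0.50, adjusted p = 0.000647). Lox and Loxl2, which cross-link collagen, were at -5.61 ± 0.64 and -5.40 ± 0.55. Fibroblast and endothelial markers were lower in suspension too (10 of 10 each), and their part in this was not tested. The higher ones with the highest CPM were Bnip3l, a mitophagy receptor, at 0.83 ± 0.15, Plod1, a collagen lysyl hydroxylase, at 0.85 ± 0.22, and Tfrc, the transferrin receptor, at 1.53 ± 0.25. Of 10 HIF partners and regulators 0 were higher and 2 lower, Hif3a at -2.75 ± 0.57 and Arnt2 at -3.84 ± 0.96 with 18 counts in suspension in all. The partner Arnt, the ubiquitin ligase subunit Vhl and the hydroxylases Egln2 and Hif1an were not called between the fractions.

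**Figure D5:**
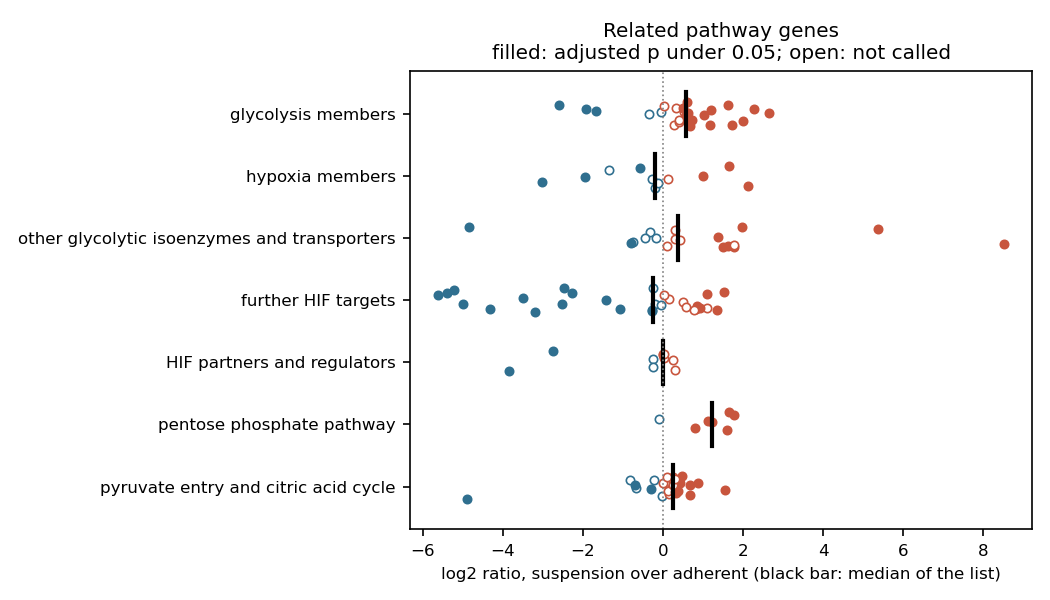
Log2 ratio of suspension over adherent libraries (x axis) for the members and for 5 lists of related genes, with a point for each tested gene, filled where adjusted p was under 0.05, and a black bar for the median of each list. The median of the pentose phosphate list is at 1.23 and that of the further HIF targets at -0.25, where points reach -5.61. The 2 points farthest to the right are Pklr and Ldhc, named after their values were seen, with 0 and 2 counts over the adherent libraries.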

How the data were processed

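The 6 libraries (10x 3′ v3) were summed over all droplets, with 1 per fraction and day. The values are read counts per gene as deposited, aligned to mm10, and the submitters' processing notes name bcl2fastq, Cell Ranger and STARsolo with versions not given in the sources used here. Tables list reads on either strand and on each strand, and the sense column was used. Rows that name no gene stayed out: unmapped reads (5.16% to 8.04%), reads aligned to several places (13.9% to 22.6%), to no gene (16.7% to 24.2%) or to more than 1 (0.676% to 0.884%). Whether reads of 1 molecule were collapsed is not stated. Gene names and positions came from GENCODE M21, which held 31011 of 31053 identifiers. Genes were filtered with filterByExpr, scaled by TMM and tested with edgeR 4.0.16 in R 4.3.3 (quasi-likelihood, Benjamini-Hochberg over 14912 genes, threshold 0.05), and the SE is the log2 ratio over the root of F. The fits left 4 residual degrees of freedom for the fractions, 3 for the common slope and 2 for separate slopes. The fits were also run on simulated counts in which few genes changed, in both directions. That setting does not test the scaling where many genes differ, as between these fractions (56.8% called). Alternatives changed the strand column, scaling, filter, tool (DESeq2 1.42.0), size of difference, day block and libraries. The labels give the collection day that same-numbered libraries share. Their deviations from the group means correlated at 0.318, 0.0952 and 0.253 for days 4, 5 and 6, and at -0.285 to 0.0217 across days. Such deviations cancel out over the 3 libraries of a fraction, so the values across days are not independent of the same-day ones. Values in every library were given for members called with a log2 ratio of at least 1, for paralogue families and for called slopes, and further genes were the up to 3 called ones of each list and direction with the highest mean CPM. The members and lists were chosen with earlier results of these data known.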

Additional observations from a re-analysis of the deposited data

How the results depend on the processing

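Between the fractions no called member's ratio changed sign under any alternative. The libraries of the called members did not overlap between the fractions, so leaving out 1 library could hardly turn a sign. Of the members not called, Pkm was at -0.0049 with DESeq2's size factors and -0.0049 by its Wald test, -0.23 with library totals, -0.036 without globin, S100a8, S100a9 and mitochondrial genes, -0.15 at 10 CPM, and -0.18 to 0.18 when 1 library was left out. Egln3 was at -0.12 with library totals and -0.16 to 0.37 when 1 library was left out. With the day as a replicate block all 23 calls were kept and 2 were gained, giving 18 higher and 7 lower. Against a 2-fold difference 5 members were higher, where the test itself asks for more. With library totals 10 were lower, where the scaling itself shifts the ratios down. For change per day the counts depended on the settings, and the cause was not tested. The common slope gave 4 higher by DESeq2. The suspension slope gave 2 higher and 1 lower both with no filter on low counts and by DESeq2, and 0 to 2 higher and 0 to 1 lower when 1 library was left out. The adherent slope gave 1 higher with library totals and 4 with no filter, and 0 to 7 when 1 library was left out. The lower count of that slope was 2 without globin, S100a8, S100a9 and mitochondrial genes, 2 at 10 CPM in 3 libraries, 3 with no filter, 3 by DESeq2, and 0 to 4 when 1 library was left out, both upper ends without adherent day 5. The slope difference gave 1 higher by DESeq2 and 0 to 1 when 1 library was left out, and 2 lower with no filter, 2 by DESeq2 and 0 to 2 when 1 library was left out. Leaving out 1 library turned the sign of 3 overlapping shares, with ranges in percentage points, suspension minus adherent, of -2.17 to 4.01 for Hk2, -0.19 to 2.72 for Pfkl and -2.79 to 0.27 for Egln1. Leaving out a library leaves a fraction with 2, and the fit with separate slopes then has 1 residual degree of freedom. With 3 libraries a fraction, exact tests cannot go below 0.1. The filter at 10 CPM left 30 members.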
